A study of Glycine max with 6 samples.

Results

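Genes for translation initiation factors were described in leaves of HN95, a soybean (Glycine max) cultivar, under saline-alkaline stress. The group holds the genes that the deposited table annotates with the Gene Ontology (GO) term translation initiation factor activity and that are on neither of the KEGG pathways for the ribosome and ribosome biogenesis. A summed count of at least 60 over the 6 libraries was also required. Of 45967 genes in the table, 130 carried the term, 2 of these were left out for a ribosome pathway and 4 for a low count, and 124 remained. Leaves came from plants whose foliage received mesoporous silica nanoparticles (MSN, porous particles of silicon dioxide; 3 libraries), and the leaves they were set against are labelled as the control (3 libraries). Both groups carry the genotype label WT, and both grew in pots of 20 kg of peat and vermiculite that received 3 L of a salt solution. It held sodium chloride and sodium carbonate at 40 mM each, and sodium bicarbonate and sodium sulfate at 320 mM each. Leaves were sampled 7 days after the spray. The protocol gives the spray as 20 mg/L, while the treatment labels of the 3 MSN libraries read 20, 21 and 22 mg/L; they were kept as 1 group because their titles name 1 treatment. The sources used here give no plant age, no control spray and no word on whether a library pools several plants.

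Initiation is the step at which a ribosome is assembled on a messenger RNA and finds its start codon. In the cytosol, eIF3 and other factors load the small ribosomal subunit, eIF2 brings the initiator tRNA in a GTP-bound form, eIF5 triggers GTP hydrolysis and eIF2B recharges eIF2 with GTP. The eIF4F complex binds the capped end of the messenger RNA, with eIF4E as its cap-binding subunit, eIF4G as its scaffold and eIF4A as its RNA helicase. Chloroplasts and mitochondria translate with bacterial-type ribosomes and use factors of the bacterial kinds IF1, IF2 and IF3, encoded in plants largely by nuclear genes. In leaves, the chloroplast ribosomes make core proteins of the photosystems and the large subunit of Rubisco.

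The libraries held 63981150 to 67923813 counts. Leaf markers were abundant in both groups. The 23 antenna protein genes summed to 6391 to 6678 CPM (counts scaled to a common library total with TMM factors) in MSN leaves and 4698 to 4922 CPM in control leaves, and the 6 genes with Rubisco activity summed to 22030 to 23060 CPM in MSN leaves and 9627 to 10227 CPM in control leaves. Phloem and xylem genes (47, with 40 tested) summed to 297 to 322 CPM in MSN leaves and 214 to 221 CPM in control leaves, with 21 higher and 2 lower. The 78 nutrient reservoir genes, a class of seed storage and germin-like proteins, summed to 2849 to 2977 CPM in MSN leaves and 1609 to 1672 CPM in control leaves, with 14 higher and 12 lower of 48 tested. The 30 guard cell genes summed to 63.7 to 66.4 CPM in MSN leaves and 69.7 to 78.1 CPM in control leaves, although of the 16 tested 4 were higher and 1 lower. Over all genes tested, 29.6% were called higher and 29.7% lower, and the nutrient reservoir calls lay a little under both shares. The part of these differences in summed level in the values below was not tested. In whole-leaf RNA, fewer cells of a type and less RNA per cell cannot be told apart.

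Initiation factor genes were mostly lower in MSN leaves, by small amounts. Of the 124 genes, all of which entered the test, 81 were lower and 13 higher, and 30 did not pass (edgeR quasi-likelihood test, Benjamini-Hochberg adjusted p threshold 0.05 over the 39203 genes tested). Lower genes made up 65.3% of the group, where 29.7% of all genes tested were called lower, and higher genes made up 10.5%, where 29.6% of all genes tested were called higher. The median log2 fold change was -0.24, beside 0.0055 over all genes tested. In 82 genes the 3 MSN values lay below the 3 control values, where 32.2% of all genes tested showed this, and in 13 they lay above, where 32.8% did. The genes did not move far: 65 of the 94 called genes changed by less than 0.5 on the log2 scale. By at least 1 on that scale, 2 genes fell and 1 rose, where 7.01% and 9.27% of all genes tested did so. The count of such falls was 4 without MSN replicate 1.

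**Figure D1:**
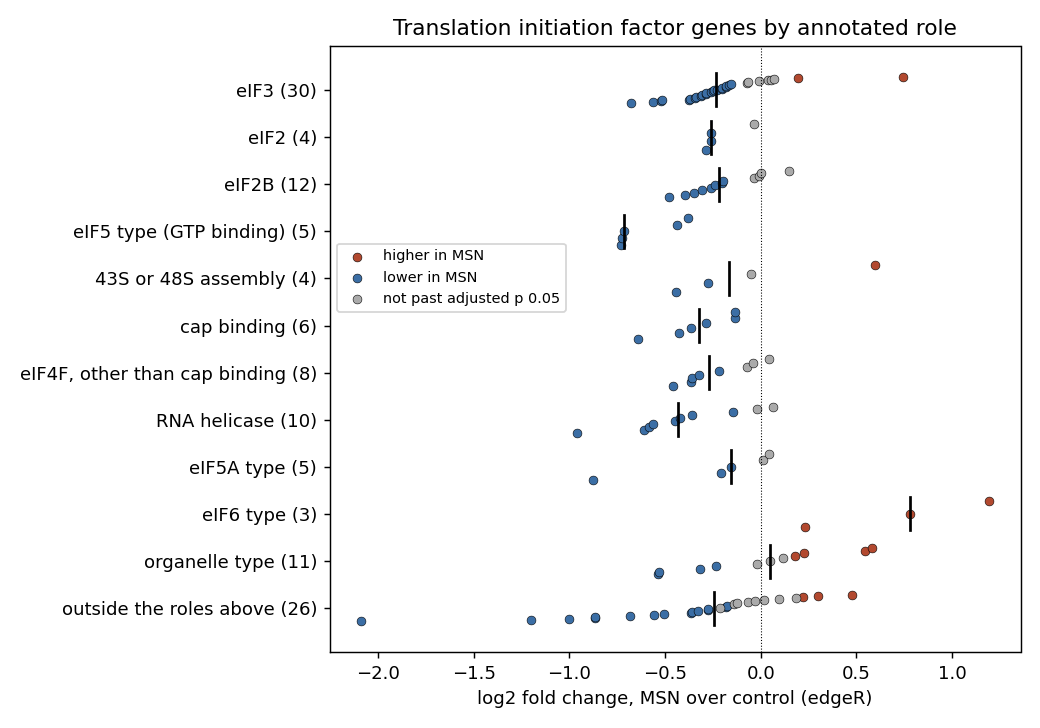
Log2 fold change of each of the 124 genes, MSN over control, in rows by annotated role with the number of genes in brackets; red points were higher in MSN, blue points lower and grey points did not pass, and black bars are row medians. Rows for cytosolic roles lie mainly left of 0, the 3 eIF6-type genes lie right of it, and the 11 organelle-type genes lie on both sides.

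By GO terms, 80 genes were placed in the cytosol, 11 were of organelle type and 33 carried no term that placed them. Of the 80 cytosolic genes, 57 were lower and 7 higher. Of the 33 unplaced genes, 20 were lower and 2 higher. The 11 organelle-type genes were split evenly, with 4 higher, 4 lower and 3 that did not pass, against backgrounds of 29.6% and 29.7%. Of those 4 lower genes, 2 are also on the KEGG RNA transport pathway, which holds cytosolic factors, and they are included in the organelle-type sums. Summed over each class, cytosolic genes took 3343, 3387 and 3403 CPM in the MSN libraries, against 4100, 3973 and 4038 CPM in the control libraries. Organelle-type genes took 750, 790 and 786 CPM in the MSN libraries, against 726, 704 and 716 CPM in the control libraries. The summed cytosolic level was thus lower in each MSN library than in any control library, and the summed organelle-type level was higher. The organelle-type sum came to 22.4, 23.3 and 23.1% of the cytosolic sum in MSN leaves, against 17.7% in each control library. As a share of all counts, the 124 genes took 0.577, 0.579 and 0.580% in MSN leaves, against 0.661, 0.659 and 0.665% in control leaves.

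**Figure D2:**
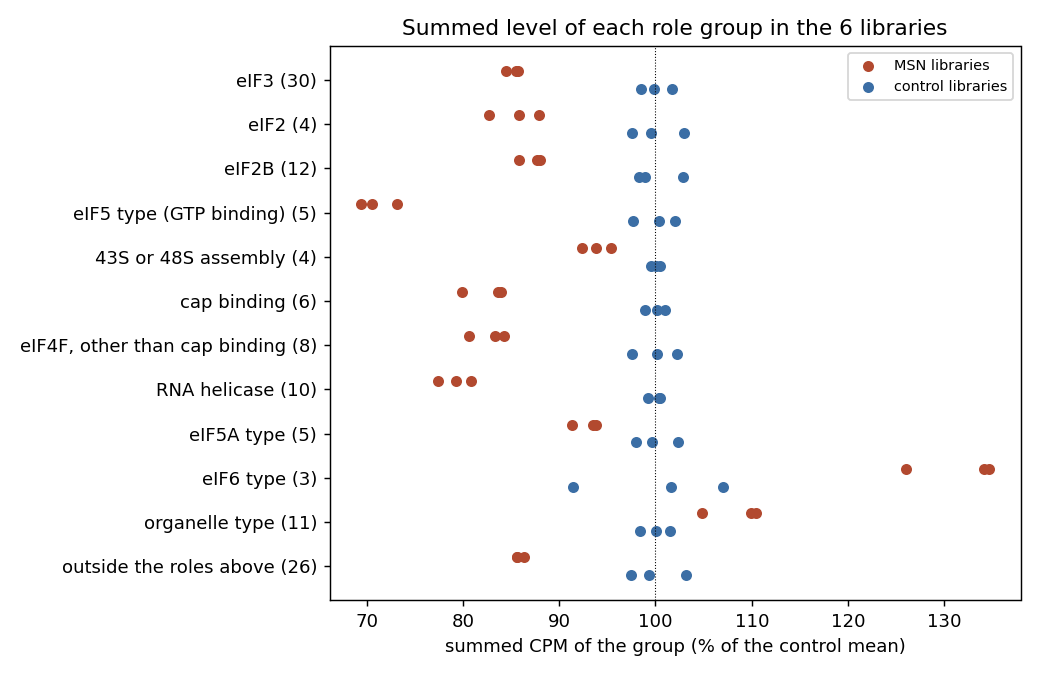
Summed CPM of each role group in each library, as a percentage of the mean of the 3 control libraries; red points are MSN libraries, blue points control libraries, and the number of genes is in brackets. The eIF5-type sum lies furthest left, at a mean of 313 CPM in MSN leaves against 441 CPM in control leaves, and the eIF6-type and organelle-type sums lie right of the control libraries.

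The eIF3 complex, the largest factor and the platform on the small ribosomal subunit, was represented by 30 genes, of which 22 were lower, 2 higher and 6 did not pass (median log2 fold change -0.24). Together they took 1429 ± 10.8 CPM in MSN leaves and 1677 ± 27.5 CPM in control leaves (SD, n = 3 each). GLYMA_13G238200, annotated to eIF3 and to messenger RNA cap binding, had 8.24, 8.88 and 8.78 FPKM in MSN leaves, against 14.5, 13.4 and 13.3 FPKM in control leaves. All 3 MSN values lay below the control values (log2 fold change -0.68, SE 0.05, adjusted p = 1.23e-09). The other eIF3 gene with that cap term, GLYMA_15G075100, had 10.6, 11.1 and 11.4 FPKM in MSN leaves, against 15.5, 15.0 and 16.7 FPKM in control leaves. It fell in the same way (log2 fold change -0.52, SE 0.05, adjusted p = 1.26e-07). GLYMA_01G029600, annotated to the eIF3m form of the complex, had 24.3, 23.1 and 22.6 FPKM in MSN leaves, against 32.3, 34.4 and 33.5 FPKM in control leaves, again with no overlap (log2 fold change -0.52, SE 0.05, adjusted p = 2.75e-08).

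Among eIF3 genes that did not pass, GLYMA_02G187100, annotated to the eIF3e form and the highest eIF3 gene by its mean over the libraries, had 35.6, 35.9 and 35.3 FPKM in MSN leaves, against 37.2, 37.4 and 37.0 FPKM in control leaves. Its 3 MSN values lay just under the control values, and it did not pass the test (log2 fold change -0.07, SE 0.04, adjusted p = 0.147). GLYMA_20G089400 had 30.6, 30.5 and 29.8 FPKM in MSN leaves, against 30.9, 31.8 and 28.6 FPKM in control leaves, which overlapped (log2 fold change -0.01, SE 0.04, adjusted p = 0.851). The 5 genes whose eIF3 annotation comes with a metal-dependent deubiquitinase term went both ways, with 2 lower, 1 higher and 2 not passing. These shares, 40% lower and 20% higher, rest on 5 genes and stand beside 29.7% and 29.6% over all genes tested. The riser among them, GLYMA_14G061600, had 8.38, 8.39 and 9.12 FPKM in MSN leaves, against 5.54, 5.11 and 4.78 FPKM in control leaves. It showed the largest change of any eIF3 gene, in the direction opposite to most of them (log2 fold change 0.74, SE 0.11, adjusted p = 1.11e-05). Another deubiquitinase-annotated gene, GLYMA_18G029500, which carries the same terms, averaged 31.9 ± 1.31 FPKM in MSN leaves and 31.0 ± 2.19 FPKM in control leaves (SD, n = 3 each; log2 fold change 0.04, SE 0.06, adjusted p = 0.574). GLYMA_13G055200 was the second eIF3 riser (log2 fold change 0.19, SE 0.07, adjusted p = 0.0243), and this call was lost in 4 of 15 alternatives.

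The factors that bring in the initiator tRNA were lower as well. Of 4 genes annotated to the eIF2 complex and not to eIF2B, 3 were lower and none higher. Their sums were 202, 195 and 207 CPM in MSN leaves, against 242, 234 and 229 CPM in control leaves. GLYMA_08G171500, with the GTPase and tRNA binding terms of the subunit that carries the initiator tRNA, had 23.8, 21.5 and 22.4 FPKM in MSN leaves, against 27.5, 27.3 and 25.8 FPKM in control leaves (log2 fold change -0.26, SE 0.04, adjusted p = 5.66e-05). The other gene with those terms, GLYMA_15G255900, had 10.0, 9.43 and 9.97 FPKM in MSN leaves, against 12.5, 11.8 and 11.5 FPKM in control leaves (log2 fold change -0.28, SE 0.05, adjusted p = 8.36e-05). Both fell with no overlap between the groups. For eIF2B, the exchange factor, 8 of 12 annotated genes were lower, none was higher and 4 did not pass (median -0.22). Of the 12, 10 carry the exchange factor term, with 7 lower and 3 that did not pass. The other 2 are also annotated to the eIF2 complex, and these GO terms do not settle which complex they belong to. They were counted under eIF2B only because that role came first in the order of matching. Of these 2, GLYMA_11G232500 is also on KEGG pathway 04141, protein processing in the endoplasmic reticulum, as is the eIF2 alpha kinase gene GLYMA_12G052400. GLYMA_18G024800 is on no KEGG pathway. The call of 1 of the 8, GLYMA_09G185000, whose groups overlapped (log2 fold change -0.20, SE 0.08, adjusted p = 0.0427), was lost in 11 of 15 alternatives. GLYMA_11G232500, annotated to both the eIF2 and eIF2B complexes, had 6.17, 7.50 and 7.61 FPKM in MSN leaves, against 10.5, 9.52 and 9.57 FPKM in control leaves. It had the largest change of the 12 (log2 fold change -0.48, SE 0.08, adjusted p = 4.55e-05). GLYMA_18G024800 carries the same complex terms and had 24.7, 24.1 and 23.5 FPKM in MSN leaves, against 24.2, 25.5 and 22.3 FPKM in control leaves, which overlapped. With a log2 fold change of 0.00055 (SE 0.06, adjusted p = 0.994), it had the smallest change of all 124 genes. It also had the highest mean level of the 12.

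The 5 eIF5-type genes, annotated to GTP binding, eIF2 binding and inhibition of GDP dissociation, were all called lower, and theirs was the lowest group median at -0.72. GLYMA_02G000200, by far the most abundant of them, had 52.5, 55.8 and 53.3 FPKM in MSN leaves, against 69.2, 70.3 and 70.4 FPKM in control leaves (log2 fold change -0.38, SE 0.04, adjusted p = 4.73e-08). GLYMA_02G090800 had 19.5, 21.3 and 19.1 FPKM in MSN leaves, against 32.9, 31.4 and 33.9 FPKM in control leaves (log2 fold change -0.72, SE 0.05, adjusted p = 3.26e-10). GLYMA_05G001200 had 7.90, 8.13 and 7.87 FPKM in MSN leaves, against 13.5, 12.9 and 12.9 FPKM in control leaves (log2 fold change -0.72, SE 0.06, adjusted p = 2.24e-09). In these 3 genes each MSN library lay below each control library. Another gene, GLYMA_18G292300, averaged 23.0 ± 0.145 FPKM in MSN leaves and 31.0 ± 0.928 FPKM in control leaves (SD, n = 3 each; log2 fold change -0.44, SE 0.04, adjusted p = 5.62e-08). The last, GLYMA_19G001200, was scarce and its groups overlapped, at 0.453, 0.251 and 0.462 FPKM in MSN leaves, against 0.441, 0.714 and 0.769 FPKM in control leaves. Its call (log2 fold change -0.73, SE 0.30, adjusted p = 0.0427) was lost in 8 of 15 alternatives, over which its adjusted p ran from 0.0151 to 0.169. These genes lie on chromosome 2 at 19463 to 22147, chromosome 2 at 8023897 to 8026772, chromosome 5 at 97958 to 100428, chromosome 18 at 57071963 to 57074669 and chromosome 19 at 92164 to 94339. The sources used here do not say how reads shared between close copies of a soybean gene were counted, so levels of near-identical family members are uncertain, here and below.

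A group of 4 further genes is annotated to the assembly of the preinitiation complex, of which 2 were lower, 1 higher and 1 did not pass. Over all genes tested, the shares were 29.7% lower and 29.6% higher, and 4 genes are too few to set against them. GLYMA_09G063400 and GLYMA_15G170200, which share terms for reinitiation and the ribosome, were lower, the first at 14.5, 15.5 and 14.8 FPKM in MSN leaves, against 18.5, 18.7 and 17.1 FPKM in control leaves (log2 fold change -0.28, SE 0.07, adjusted p = 0.00142). The second fell by 0.44 on the log2 scale. GLYMA_12G241600, with no term beyond assembly and initiation, had 4.92, 4.84 and 5.01 FPKM in MSN leaves, against 3.05, 3.02 and 3.69 FPKM in control leaves. Its MSN values all lay above the control values (log2 fold change 0.60, SE 0.10, adjusted p = 7.8e-05).

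At the messenger RNA cap, all 6 genes with the cap-binding term were lower. In plants this family is also known for recessive resistance to viruses that need it, and all 6 carry the GO term defence response to virus. Their sums were 170, 162 and 169 CPM in MSN leaves, against 203, 200 and 205 CPM in control leaves. GLYMA_13G222400 on chromosome 13 at 33528639 to 33531238 had 11.7, 10.2 and 12.1 FPKM in MSN leaves, against 18.2, 16.6 and 18.2 FPKM in control leaves. It fell most of the 6 (log2 fold change -0.64, SE 0.08, adjusted p = 7.62e-07), with no overlap. GLYMA_10G136100, the most abundant, had 39.2, 37.0 and 37.2 FPKM in MSN leaves, against 40.7, 42.5 and 41.0 FPKM in control leaves. Its fall was small (log2 fold change -0.14, SE 0.05, adjusted p = 0.0183), and the call was lost in 3 of 15 alternatives, over which the adjusted p ran from 0.0129 to 0.115. The call of GLYMA_02G072700 (-0.13 on the log2 scale) was lost in 4 of 15.

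The other 8 genes of the eIF4F complex, whose terms include messenger RNA binding and regulation of translation, split into 5 that were lower and 3 that did not pass. GLYMA_02G205500, the most abundant, had 23.6, 24.8 and 24.6 FPKM in MSN leaves, against 31.0, 31.2 and 31.0 FPKM in control leaves (log2 fold change -0.36, SE 0.04, adjusted p = 3.67e-07). GLYMA_01G094200 had 8.84, 8.88 and 9.63 FPKM in MSN leaves, against 12.8, 12.2 and 12.5 FPKM in control leaves (log2 fold change -0.46, SE 0.05, adjusted p = 1.14e-07). Neither gene overlapped between the groups. Those that did not pass, GLYMA_06G225700, GLYMA_07G117800 and GLYMA_03G106500, lay at -0.07, -0.04 and 0.05 on the log2 scale with SEs of 0.05 to 0.06.

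RNA helicase genes, the class of eIF4A, which unwinds the leader of the messenger RNA, had a lower median than the cap-binding and other eIF4F genes. By the order of matching, the genes in this group carry no term for cap binding or the eIF4F complex. Their place in that complex is therefore not shown by the annotation. Of 10, 8 were lower, none was higher and 2 did not pass (median -0.43), and they summed to 416, 406 and 424 CPM in MSN leaves, against 527, 521 and 527 CPM in control leaves. GLYMA_06G053200 on chromosome 6 at 4026787 to 4030186 had 8.65, 7.55 and 7.39 FPKM in MSN leaves, against 14.7, 15.6 and 15.5 FPKM in control leaves. Its level in MSN leaves was 0.514 times the control level (log2 fold change -0.96, SE 0.06, adjusted p = 2.1e-10). The most abundant helicase, GLYMA_09G065600, had 33.4, 32.5 and 32.9 FPKM in MSN leaves, against 36.6, 36.1 and 36.3 FPKM in control leaves and fell little (log2 fold change -0.15, SE 0.04, adjusted p = 0.00297). GLYMA_17G053200 had 21.2, 21.2 and 22.1 FPKM in MSN leaves, against 22.4, 21.6 and 21.4 FPKM in control leaves, which overlapped (log2 fold change -0.02, SE 0.05, adjusted p = 0.724), and GLYMA_13G106200 did not pass either. The 8 helicase genes that fell are on the KEGG RNA transport pathway and those 2 are on none.

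Genes of the eIF5A type, whose product helps elongation and termination as well as initiation, were among the most abundant of the group. GLYMA_17G103100, the highest of all 124 genes per length, had 230, 233 and 234 FPKM in MSN leaves, against 228, 226 and 234 FPKM in control leaves. The groups overlapped (log2 fold change 0.01, SE 0.03, adjusted p = 0.756), and under quantile normalisation it was called higher at 0.083 on the log2 scale, in a range of adjusted p over alternatives of 0.0187 to 0.983. GLYMA_05G024200 was second at 148, 138 and 140 FPKM in MSN leaves, against 135, 138 and 140 FPKM in control leaves and also overlapped (log2 fold change 0.04, SE 0.04, adjusted p = 0.352). The least abundant of the 5, GLYMA_02G112400, had 27.5, 24.4 and 28.7 FPKM in MSN leaves, against 47.7, 48.6 and 50.9 FPKM in control leaves. It fell with no overlap (log2 fold change -0.87, SE 0.06, adjusted p = 2.05e-10), so the family was uneven: 3 genes fell and the 2 most abundant did not pass.

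Genes of the eIF6 type, whose product binds the large ribosomal subunit, serves in its maturation and keeps it from joining the small one too early, went the other way. All 3 that the selection kept were higher. GLYMA_10G175400 had 0.538, 0.581 and 0.515 FPKM in MSN leaves, against 0.262, 0.251 and 0.199 FPKM in control leaves, the largest rise of the 124 genes on counts (log2 fold change 1.19, SE 0.13, adjusted p = 4e-07). On log2(FPKM + 1) its change was 0.32, below the 0.67 of GLYMA_10G175500 and the 0.65 of GLYMA_14G061600. GLYMA_10G175500, which lies next to GLYMA_10G175400, had 6.57, 7.36 and 7.15 FPKM in MSN leaves, against 4.15, 4.72 and 3.37 FPKM in control leaves (log2 fold change 0.78, SE 0.17, adjusted p = 0.000784). GLYMA_16G208600 had 18.8, 18.2 and 17.0 FPKM in MSN leaves, against 16.3, 15.5 and 14.1 FPKM in control leaves (log2 fold change 0.23, SE 0.06, adjusted p = 0.00259). In each, all MSN values lay above all control values. GLYMA_10G175400 is low in FPKM but had 2465 counts in all, against 1133 for its neighbour GLYMA_10G175500. As FPKM is scaled to gene length, a much longer length was used for the first gene than for the second. They lie on the same strand of chromosome 10, at 40940014 to 40954566 and 40958967 to 40960691. How reads were divided between them is not stated. The pattern is not that of every eIF6-type gene in the table, since 2 more were left out for the ribosome biogenesis pathway. Of these, GLYMA_09G158100 had 16.9, 17.6 and 17.2 FPKM in MSN leaves, against 20.7, 19.7 and 20.1 FPKM in control leaves and was lower (log2 fold change -0.24, SE 0.05, adjusted p = 0.000403). GLYMA_20G215000 had 8.61, 7.83 and 8.74 FPKM in MSN leaves, against 8.65, 9.72 and 9.62 FPKM in control leaves and did not pass (log2 fold change -0.16, SE 0.08, adjusted p = 0.093). A further one, GLYMA_16G208500, which the table describes as eukaryotic translation initiation factor 6-2, was under the floor with counts of 0, 0 and 0 in MSN leaves and 13, 14 and 0 in control leaves. It lies on chromosome 16 at 36806718 to 36809299, close to the riser GLYMA_16G208600 at 36810473 to 36813869 on the same strand. How reads were divided between these genes is not stated either.

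Organelle-type genes went both ways. Of 5 with the term ribosome disassembly, an activity of the bacterial factor IF3, the 3 that also carry the chloroplast term had log2 fold changes above 0 and 2 of them were called higher. GLYMA_02G205700 had 34.0, 37.9 and 36.4 FPKM in MSN leaves, against 24.8, 23.4 and 24.1 FPKM in control leaves. It rose the most of the 11 genes, with no overlap (log2 fold change 0.58, SE 0.05, adjusted p = 2.28e-08). GLYMA_17G072300, the most abundant of the 11, had 64.7, 68.6 and 69.5 FPKM in MSN leaves, against 60.3, 57.2 and 55.3 FPKM in control leaves and rose as well (log2 fold change 0.23, SE 0.04, adjusted p = 0.000216). GLYMA_04G154000 had 13.4, 13.0 and 11.7 FPKM in MSN leaves, against 11.6, 11.5 and 12.1 FPKM in control leaves, which overlapped (log2 fold change 0.11, SE 0.07, adjusted p = 0.162). Of the 2 without a chloroplast term, GLYMA_10G282700 was lower in each MSN library, at 5.68, 6.77 and 6.20 FPKM in MSN leaves, against 8.68, 9.41 and 8.77 FPKM in control leaves (log2 fold change -0.53, SE 0.07, adjusted p = 7.06e-06). GLYMA_20G106900 had 4.56, 4.46 and 4.85 FPKM in MSN leaves, against 4.81, 4.72 and 4.49 FPKM in control leaves, which overlapped (log2 fold change -0.02, SE 0.12, adjusted p = 0.906).

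The 6 organelle-type GTPases, the activity of the bacterial factor IF2, all carry chloroplast terms and were also divided. Of them, 2 were higher and 3 lower, beside 29.6% and 29.7% over all genes tested. GLYMA_08G174200 had 39.4, 39.5 and 39.1 FPKM in MSN leaves, against 26.9, 27.6 and 26.4 FPKM in control leaves. It was higher with no overlap (log2 fold change 0.54, SE 0.04, adjusted p = 2.27e-10). GLYMA_15G253000 had 36.4, 38.0 and 38.7 FPKM in MSN leaves, against 34.2, 31.2 and 34.2 FPKM in control leaves and was higher by less (log2 fold change 0.18, SE 0.04, adjusted p = 0.00197). GLYMA_03G227100 had 14.8, 15.3 and 15.7 FPKM in MSN leaves, against 14.9, 14.6 and 14.8 FPKM in control leaves, which overlapped (log2 fold change 0.05, SE 0.05, adjusted p = 0.394). GLYMA_19G224000 fell, at 5.59, 6.04 and 5.92 FPKM in MSN leaves, against 6.32, 6.96 and 7.29 FPKM in control leaves (log2 fold change -0.23, SE 0.07, adjusted p = 0.00496). The remaining GTPases, GLYMA_20G166200 and GLYMA_10G225800, are also on the KEGG RNA transport pathway, which holds cytosolic factors. The first had 11.2, 12.1 and 11.6 FPKM in MSN leaves, against 16.8, 16.9 and 16.8 FPKM in control leaves (log2 fold change -0.54, SE 0.04, adjusted p = 4.29e-09). The second had 10.9, 11.5 and 10.6 FPKM in MSN leaves, against 13.8, 14.0 and 13.2 FPKM in control leaves (log2 fold change -0.32, SE 0.05, adjusted p = 7.73e-06). Both fell, with all MSN values below all control values.

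Besides these, 4 genes carry both a plastid or mitochondrial term and a cytosolic one and were counted as cytosolic. GLYMA_17G080200 is the only gene of the 124 that the table names: it is infA, the gene name of the bacterial factor IF1. On chromosome 17 at 6216557 to 6217601, it had 39.5, 42.8 and 41.8 FPKM in MSN leaves, against 29.1, 28.3 and 31.8 FPKM in control leaves. It rose with no overlap (log2 fold change 0.47, SE 0.06, adjusted p = 9.32e-07). GLYMA_05G019600, with the same chloroplast and cytosol terms, had 24.3, 28.8 and 24.2 FPKM in MSN leaves, against 20.9, 19.2 and 22.5 FPKM in control leaves and rose too (log2 fold change 0.30, SE 0.08, adjusted p = 0.00277). The others, GLYMA_03G243100 and GLYMA_19G240600, are eIF2B genes and did not pass. Counted as organelle type, the 4 would bring that class to 6 higher and 4 lower of 15. Antenna protein genes, whose products are imported into chloroplasts, moved the same way as the risers (20 of 23 were higher, 2 lower), and the part of a wider shift of chloroplast genes was not tested.

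**Figure D3:**
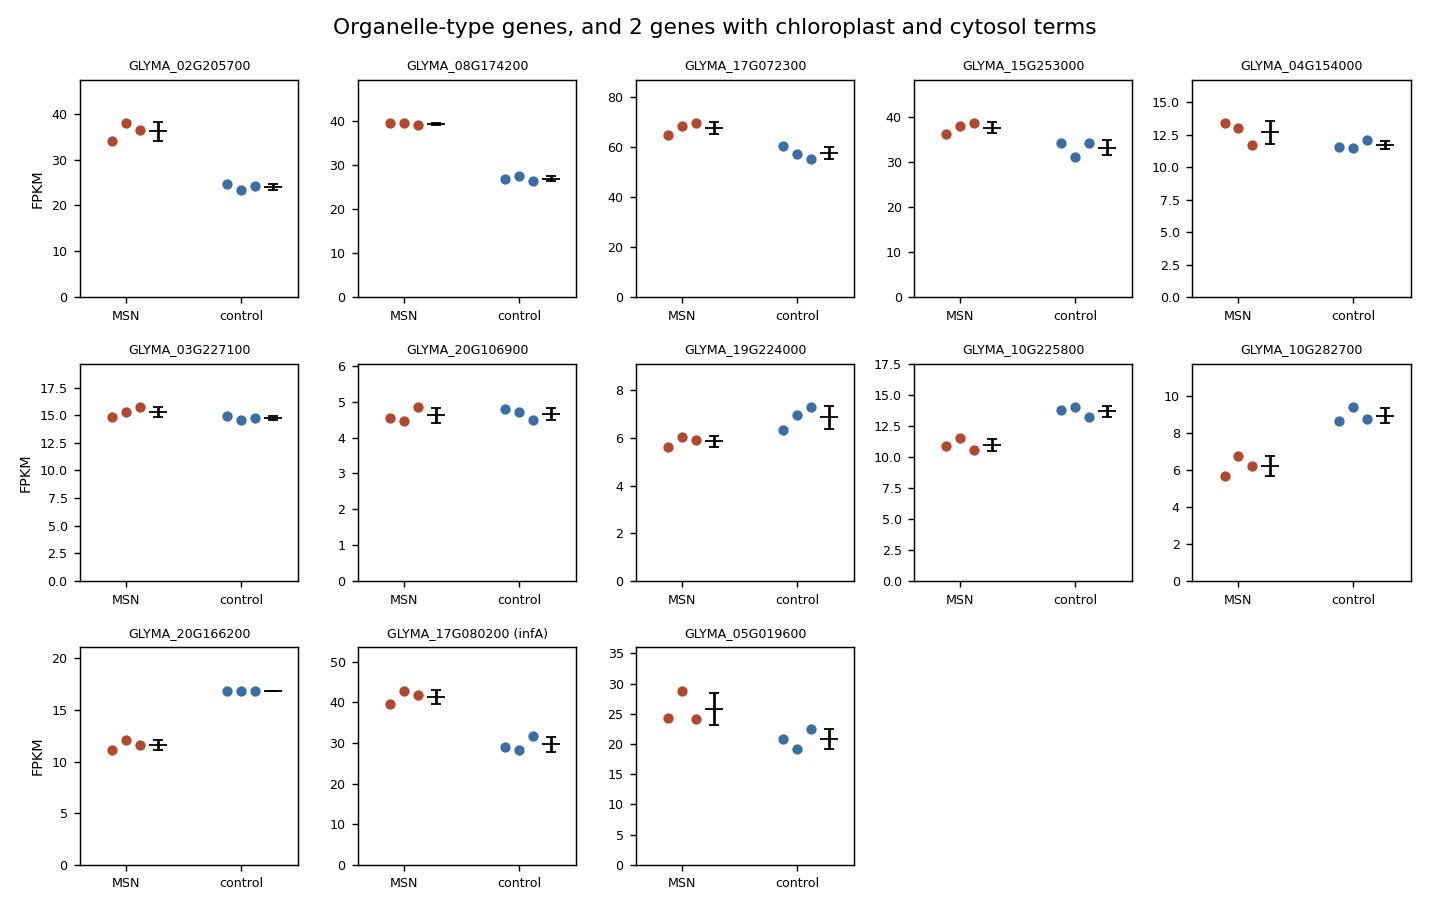
Deposited FPKM in the 3 MSN and 3 control libraries for the 11 organelle-type genes, ordered from the largest rise to the largest fall, and for infA and GLYMA_05G019600; points are libraries, and bars beside them are the mean ± SD. GLYMA_02G205700, GLYMA_08G174200 and infA stand clearly apart upwards, and GLYMA_20G166200 and GLYMA_10G282700 downwards.

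The 124 genes lay on all 20 chromosomes, with 2 to 11 on each. With at most 10 listed genes between them, 6 pairs were neighbours, and 3 of those pairs joined a chloroplast-annotated ribosome disassembly gene to an eIF4F gene on the opposite strand. On chromosome 2, GLYMA_02G205700 and GLYMA_02G205500 were 15382 bases apart with 1 gene between them. On chromosome 17, GLYMA_17G072300 and GLYMA_17G072500 were 8170 bases apart with 1 gene between them, and on chromosome 4, GLYMA_04G154000 and GLYMA_04G154100 were 14370 bases apart with none. These 3 pairs hold all 3 genes of the first kind and 3 of the 8 of the second. Within each, the members' values went opposite ways: 0.58 and -0.36 on the log2 scale for the chromosome 2 pair, 0.23 and -0.32 for the chromosome 17 pair, and 0.11, which did not pass, and -0.22 for the chromosome 4 pair. GLYMA_17G072500 had 21.8, 21.5 and 21.2 FPKM in MSN leaves, against 27.5, 27.4 and 25.6 FPKM in control leaves (log2 fold change -0.32, SE 0.04, adjusted p = 2.44e-06). GLYMA_04G154100 had 11.8, 12.4 and 12.1 FPKM in MSN leaves, against 14.1, 13.5 and 14.4 FPKM in control leaves (log2 fold change -0.22, SE 0.05, adjusted p = 0.00134). Both eIF4F genes were lower in every MSN library.

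**Figure D4:**
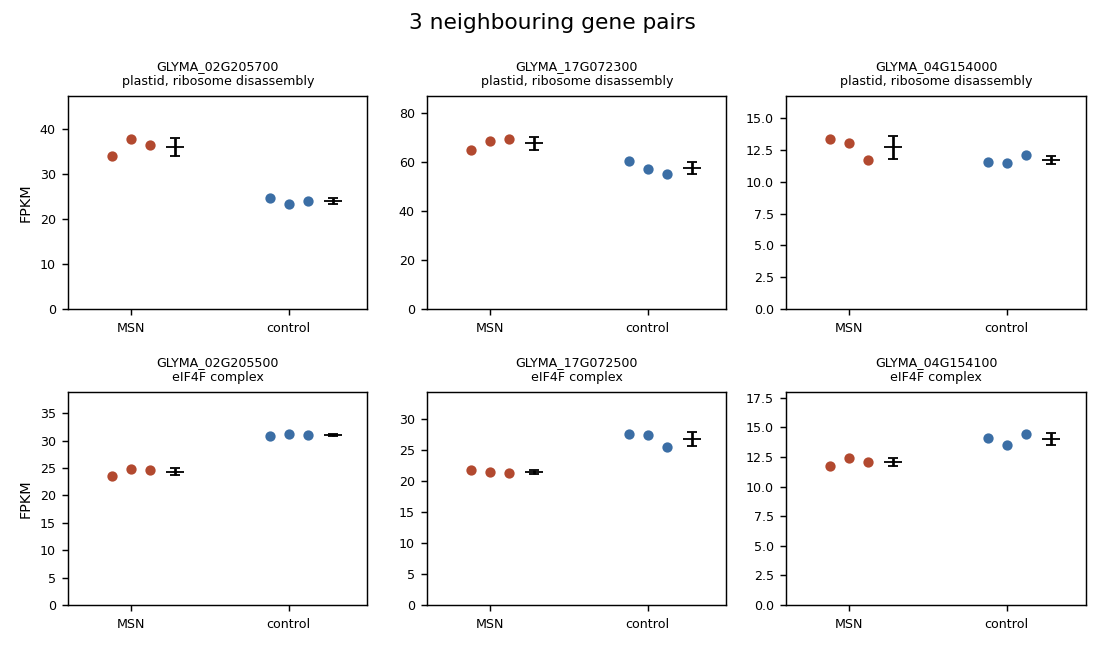
Deposited FPKM by library in the 3 neighbouring pairs, with the plastid-annotated gene above and its eIF4F neighbour below; points are libraries and bars the mean ± SD of 3. In the pairs on chromosomes 2 and 17 the upper gene is higher in MSN and the lower gene lower, and the upper gene of the chromosome 4 pair overlaps between groups.

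The deepest falls were among 26 genes outside these roles, whose terms mostly go no further than RNA binding and initiation. Of these, 15 were lower, 3 higher and 8 did not pass (median -0.25). The higher genes include infA and GLYMA_05G019600, which carry chloroplast terms and were described above. The remaining riser was GLYMA_07G208200 (log2 fold change 0.22, SE 0.07, adjusted p = 0.0162), whose call was kept in 13 of 15 alternatives. GLYMA_02G291500 on chromosome 2 at 47084239 to 47085386 had 0.991, 0.638 and 0.436 FPKM in MSN leaves, against 3.12, 2.97 and 2.74 FPKM in control leaves. It fell furthest of the 124 genes, to 0.235 times the control level (log2 fold change -2.09, SE 0.24, adjusted p = 4.07e-07), from a low level. GLYMA_14G023300, with identical terms, had 7.49, 6.88 and 6.67 FPKM in MSN leaves, against 15.0, 16.5 and 16.8 FPKM in control leaves and was second (log2 fold change -1.20, SE 0.08, adjusted p = 2.24e-10). Both were apart in every library. GLYMA_08G316700 had 6.46, 6.43 and 5.62 FPKM in MSN leaves, against 12.8, 12.2 and 11.9 FPKM in control leaves, and its MSN level was 0.50 times the control level (SE 0.10 on the log2 scale, adjusted p = 7.93e-08). GLYMA_18G096400 had 7.55, 7.05 and 6.76 FPKM in MSN leaves, against 12.7, 12.6 and 13.5 FPKM in control leaves (log2 fold change -0.86, SE 0.05, adjusted p = 6.18e-11). GLYMA_06G302800 had 4.28, 3.63 and 3.67 FPKM in MSN leaves, against 7.44, 6.66 and 7.00 FPKM in control leaves (log2 fold change -0.87, SE 0.09, adjusted p = 1.52e-07). The last 3 of these and GLYMA_12G100700 (-0.68 on the log2 scale) share the RNA binding term and the KEGG RNA transport pathway, and none of them overlapped between groups.

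The most abundant genes with the same sparse terms changed less or did not pass. The neighbours GLYMA_06G269600 and GLYMA_06G269500 on chromosome 6 averaged 91.4 ± 3.31 FPKM in MSN leaves and 110 ± 2.02 FPKM in control leaves for the first and 85.9 ± 4.30 FPKM in MSN leaves and 89.6 ± 5.57 FPKM in control leaves for the second (SD, n = 3 each). The first was lower (log2 fold change -0.28, SE 0.04, adjusted p = 3.55e-06) and the second did not pass (log2 fold change -0.06, SE 0.05, adjusted p = 0.236). GLYMA_12G135100 had 88.5, 85.4 and 88.0 FPKM in MSN leaves, against 83.2, 89.3 and 85.8 FPKM in control leaves, which overlapped (log2 fold change 0.02, SE 0.04, adjusted p = 0.729). It was called higher, at 0.086 on the log2 scale, under quantile normalisation, with an adjusted p over alternatives of 0.0462 to 0.994. Of the 6 genes with a mean of at least 80 FPKM, 4 did not pass and the other 2 fell by 0.21 and 0.28 on the log2 scale. Among all genes tested, 29.7% were called lower and 29.6% higher. A dependence of the calls on level was not tested.

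The floor on summed counts separated members widely. The scarcest gene inside it, GLYMA_19G001200, had 493 counts in all, and the 4 genes outside had 8 to 42. The highest of those, GLYMA_02G254900, an eIF3 gene, had 11, 12 and 15 counts in MSN leaves and 4, 0 and 0 in control leaves. All 3 MSN values lay above the control values, opposite to most eIF3 genes, and a floor of 20 would count it as higher, for 14 higher genes in all.

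Counts for other steps of protein synthesis are read against the 29.6% of all genes tested that were higher and the 29.7% that were lower. Of 43 further elongation factor genes tested, 16 were higher and 16 lower (median 0.03), and of 20 release factor genes, 7 were higher and 8 lower (median -0.11). Aminoacyl-tRNA ligases, which charge tRNAs, had 43 of 93 higher and 26 lower (median 0.11). Poly(A)-binding genes, whose products bind the tail of the messenger RNA and contact eIF4G, had 6 of 17 higher and 8 lower (median -0.13). On the KEGG ribosome pathway, 89 of 390 genes were higher and 130 lower (median -0.04). On the ribosome biogenesis pathway, 61 of 113 were lower and 10 higher (median -0.15). Annotated repressors of translation had 9 of 40 higher and 14 lower (median -0.04). Elongation factors (37.2% higher, 37.2% lower) and release factors (35.0% higher, 40.0% lower) lay modestly above both shares over all genes. Ribosome genes (22.8% higher, 33.3% lower) and repressors (22.5% higher, 35.0% lower) lay modestly under the first share and above the second. None of these differences from all genes was tested. Differences between these lists and the initiation factors were not tested.

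Among annotated regulators of initiation, GLYMA_12G052400 was the only tested gene with the term for eIF2 alpha kinase, the class of GCN2 that slows initiation when amino acids are short. It averaged 3.18 ± 0.435 FPKM in MSN leaves and 4.07 ± 0.0578 FPKM in control leaves (SD, n = 3 each). It was lower with no overlap (log2 fold change -0.36, SE 0.08, adjusted p = 0.000586). Of 10 genes annotated to TOR, the kinase complex that promotes initiation when nutrients are ample, 4 were lower, none was higher and 6 did not pass (median -0.08). The share of lower genes, 40%, lay above the 29.7% over all genes tested, a difference that rests on 10 genes and was not tested. GLYMA_09G278500 fell most of those 4 (log2 fold change -0.31, SE 0.05, adjusted p = 1.96e-05), and GLYMA_01G241300, annotated as a kinase of that complex, did not pass at 7.70 ± 0.0940 FPKM in MSN leaves and 7.52 ± 0.0878 FPKM in control leaves (SD, n = 3 each; log2 fold change 0.03, SE 0.04, adjusted p = 0.542).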

How the data were processed

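Each gene of the deposited table has, per the file headers, 6 count columns and 6 FPKM columns, 1 of each for every leaf library. The deposited counts are whole numbers and not normalised. The authors' FPKM values are fragments scaled to gene length and to library depth. The submitters' processing notes name DESeq2 1.34.0 and R 4.1.2 with no role. The aligner, the counter, its use of strand and the build were not given in the sources used here. Coordinates are the table's own. A RefSeq gene table matched 0 of the 124 identifiers, so no names were added and no sequences are shown. Libraries were grouped by their titles. The members, lists and tests were chosen with earlier results of these data known.

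Counts were tested across all genes with edgeR 4.0.16 in R 4.3.3 (glmQLFit and glmQLFTest, TMM, filterByExpr, 2-sided, Benjamini-Hochberg over 39203 genes). The pipeline was tested on simulated data. SEs were derived from the F statistic. Role groups are the first match among GO terms in a fixed order. Genes were named by rule: in each role and placement the most abundant member and the called member of largest change, the 10 largest rises and falls among called genes of at least 1 CPM whose groups do not overlap, the 5 smallest changes at 10 CPM or more, every organelle-type gene and any gene with its own name. All other genes named were chosen after seeing their values. Counts pile up at 4: 17.7 to 19.0% of counts from 1 to 12 had that value. Totals may thus overstate the precision. The median coefficient of variation over the 124 genes was 4.38% in both groups. Titles call the replicates biological, and separate plants are not stated, so the p-values cover the spread among these libraries, which may be technical. Alternatives were DESeq2 1.42.0, its size factors, quantile normalisation, library quality weights and log2 FPKM with pseudocounts of 1 and 0.1 in limma 3.58.1, no filter, counts divided by 4, a replicate block, leaving out each library, floors of 20 and 600 counts, and keeping the ribosome pathways.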

Additional observations from a re-analysis of the deposited data

How the results depend on the processing

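Over the 12 alternatives other than leaving out a library, the number of lower genes ran from 76 to 82 and of higher genes from 13 to 16. The median log2 fold change, computed under 9 of these, ran from -0.25 to -0.20. Leaving out 1 library at a time gave 75 to 82 lower genes, 11 to 13 higher genes and medians of -0.26 to -0.22, with 53 to 57 lower and 6 to 7 higher cytosolic genes and 4 of each for the organelle type. Rises by at least 1 on the log2 scale stayed at 1 gene and falls numbered 2 to 4. On FPKM with a pseudocount of 1 or 0.1, no gene (0) rose by at least 1. The only such riser on counts was GLYMA_10G175400, which is low in FPKM, and a pseudocount lowers its fold change by construction (0.32 and 0.94 on the log2 scale). Each MSN library deviated most alike with the control library of its own number, but weakly (correlations of 0.0473, 0.0133 and 0.0654). Control replicate 2 correlated best with MSN replicate 1 (0.0175). The labels do not say that the numbers mark pairs, and they were not taken as pairs. With the replicate block, 79 genes were lower and 13 higher, and the call of GLYMA_19G001200 was lost (adjusted p = 0.0580). Placing the 4 genes with both kinds of term in the organelle class, an alternative chosen after seeing the data, gave 6 higher and 4 lower organelle-type genes of 15. Of the 46 genes named by rule, 42 stayed on their side of the threshold in each of the 15 alternative fits and none reversed. Of the 94 called genes, 10 lost their call in at least 1 fit and 0 turned to the opposite call. At this depth and with 3 libraries a group, the median SE of a log2 fold change was 0.055 over the 124 genes, against 0.30 for the scarcest, GLYMA_19G001200.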
